A study of Mus musculus with 8 samples.

Results

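The complement genes described here are C3, C4b, C1s, C1ra, Cfb, Cfd, Serping1, Cd55 and Masp1, and their members on the array were taken as every probe whose platform annotation carries 1 of these symbols, with C1s also read as C1s1 and C1ra as C1r. This found 7 of the 9 genes, among 16593 genes named on the array, with 8 of its 25697 probes; no probe carried the symbol C3 or Cfd, so those 2 genes are not analysed here. Expression was measured on 8 Illumina bead arrays of primary vascular smooth muscle cells grown from the carotid artery of male C57bl6 mice without PMCA4, a calcium-extruding pump of the cell membrane whose gene is Atp2b4. In the rescued group (4 arrays) the splice form PMCA4a had been put back into knockout cells by electroporation of its cDNA, and the knockout group (4 arrays) consisted of the PMCA4 knockout cells themselves. Both groups were synchronised by serum, stimulated with PDGF-BB (a smooth muscle mitogen) plus serum, and collected in late G1/S. The age of the mice, the promoter driving the cDNA and any pooling of animals are not given in the sources used here, and neither is whether the knockout cells were mock electroporated. If they were not, electroporation and PMCA4a cannot be told apart. Whether replicates came from separate cultures is not stated, so the p-values reflect no more than the spread among these 8 arrays, and that spread may be technical.

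Complement is a cascade of plasma and tissue proteins that marks surfaces for uptake or lysis. The classical pathway begins with C1, in which the protease C1r activates C1s, which then cleaves C4 and C2; the lectin pathway begins with collectins or ficolins and the MASP proteases; the alternative pathway runs through factor B and factor D; all meet at C3. Host cells are protected by C1 inhibitor (Serping1), which inactivates C1r, C1s and MASP proteases, by CD55, which speeds the decay of C3 convertases on the cell surface, by C4b-binding protein and factor I, which act on C4b and C3b, and by CD59, which blocks the terminal pore. The liver makes most circulating complement, but cells of the vessel wall, smooth muscle cells and fibroblasts among them, also transcribe several components.

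Among these genes, the surface regulator Cd55 was about 2-fold higher in rescued cells and the C1 inhibitor gene Serping1 was lower. The protease gene C1s was higher at 1 of its 2 probes, while C4b did not pass the test. A probe counted as detected on an array at a deposited detection p under 0.05, and probes detected on at least 4 of the 8 arrays were tested. This left 5 probes from 4 member genes, each detected on all 8 arrays, while the single probes of C1ra, Cfb and Masp1 were too dim to be tested. With limma's moderated test and Benjamini-Hochberg adjustment over all 12658 tested probes, 2 of the 5 member probes were higher and 1 was lower in rescued cells at an adjusted p under 0.05, and 2 did not pass. Across all tested probes 38.8% passed, 20% higher and 18.7% lower, so the members' count of 3 in 5 is read against a background in which such calls were common. The median log2 difference, rescued minus knockout, was 0.43 over the 5 member probes and 0.00 over all tested probes, and the median absolute difference was 0.80 against 0.21. The members were chosen with earlier results of these data known, so a larger median than the background is not an independent result. C1s counts with 2 probes here, and the median of 0.43 is the value of its second probe, which did not pass; without rescued replicate 3 that probe's difference, again the middle one of the 5, was 0.15. The groups did not overlap at 2 of the 5 member probes, Cd55 and Serping1, against 38.8% of all tested probes. With bulk RNA, fewer cells of a type and less RNA per cell cannot be told apart.

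Rescued replicate 3 stood apart from the other rescued arrays at several of these genes. Pairs of rescued arrays had correlations from 0.986 to 0.995 over the tested probes, and pairs of knockout arrays from 0.995 to 0.996. Detected probes numbered 12640 to 12873 on rescued and 12223 to 12427 on knockout arrays, and median intensities were 115 to 118 units on rescued and 108 to 118 units on knockout arrays. The only detected probe of the targeted gene Atp2b4 had normalized log2 intensities of 5.25 to 5.73 on rescued and 5.31 to 5.82 on knockout arrays, and its other 2 probes were undetected throughout. The place of the probes relative to the deletion and to the cDNA was not analysed here, and their levels therefore give no check of the labels. Of 10 smooth muscle markers, 6 were tested, with 2 higher and 2 lower in rescued cells (mean log2 level 8.72 to 9.06 on rescued and 9.18 to 9.39 on knockout arrays). Over all genes tested 21% were higher and 18.9% lower. Actg2 and Tagln fell (log2 differences -2.85 and -1.43), while Smtn rose (0.43), as did Myocd (1.70), detected on 4 rescued arrays and 1 knockout array. The Myocd level on knockout arrays, 4.89 on average, was near background, and its other probes were not detected on any array. The rescued arrays alone were enough for Myocd to meet the detection filter, so its call is not independent of the filter. Acta2 averaged 15.83 on rescued arrays and 15.87 on knockout arrays at its brightest probe. That probe read 56648 to 61411 units, near the array maxima of 61011 to 65109. Its other probes, at 12.45 to 14.14 on rescued arrays, differed by -0.03 to 0.08 and did not pass. Cnn1, Lmod1 and Synpo2 were not detected on any array and Myh11 was detected on 1 rescued array alone.

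Promoter sequences are shown for the member genes Cd55 and C1s1, which were higher, and for C4bp, the complement gene with the largest fall. They are the 250 bases upstream of the annotated start, read 5′ to 3′ on the gene's strand, from RefSeq on build GRCm38.p6: Cd55 at chr1:130462745-130462994 (minus strand), C1s1 at chr6:124542360-124542609 (minus strand) and C4bp at chr1:130661619-130661868 (minus strand). Capitals mark matches to any of the motifs searched.
Cd55: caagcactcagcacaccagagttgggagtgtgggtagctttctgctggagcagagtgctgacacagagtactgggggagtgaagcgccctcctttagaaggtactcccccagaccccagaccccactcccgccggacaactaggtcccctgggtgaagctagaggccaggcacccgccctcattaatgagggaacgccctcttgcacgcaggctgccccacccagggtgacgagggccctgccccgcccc
C1s1: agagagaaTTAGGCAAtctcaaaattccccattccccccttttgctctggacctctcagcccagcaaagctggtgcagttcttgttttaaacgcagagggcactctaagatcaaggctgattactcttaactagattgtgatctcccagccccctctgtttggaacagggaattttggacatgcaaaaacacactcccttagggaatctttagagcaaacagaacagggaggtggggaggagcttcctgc
C4bp: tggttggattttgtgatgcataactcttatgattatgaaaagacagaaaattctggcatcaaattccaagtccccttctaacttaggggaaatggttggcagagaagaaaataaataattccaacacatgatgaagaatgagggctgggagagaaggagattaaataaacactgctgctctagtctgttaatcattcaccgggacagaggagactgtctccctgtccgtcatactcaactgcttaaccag
Both strands were searched for the TATA box (TATAAA), the GAS core bound by STAT factors (TTCNNNGAA), the ISRE core of interferon responses (GAAANNGAA), the AP-1 site (TGANTCA), the C/EBP core (TTNNGCAA), the NF-kB consensus and the CArG box of serum response factor. Among 32841 promoter entries of the same length, the TATA box was present in 12.4%, the GAS core in 7.02%, the ISRE core in 7.13%, the AP-1 site in 6.75%, the C/EBP core in 9.57%, the NF-kB consensus in 7.25% and the CArG box in 1.47%. One C/EBP match lay in the C1s1 window shown, from base -242 to base -235 relative to the start, and no motif overlapped another there. C1s1 has another annotated start, whose window (chr6:124542322-124542571) is not shown and held none of these motifs. In the windows of Cd55 and C4bp none of these letters was found. Of the 10 complement genes past the threshold 7 had a promoter entry; Serping1, Clu and Cfi were not among them. The C1qbp window held an AP-1 match and the Cd59a window an ISRE match, and each match is a description of letters only.

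Of the proteases of the classical pathway, C1s was measured by 2 probes and C1ra by 1. C1s is the protease of C1 that cleaves C4 and C2. At its brighter probe (ILMN_1257046) the normalized log2 intensities were 7.12, 6.81, 8.22 and 7.56 on rescued replicates 1 to 4, against 6.75, 6.84, 6.29 and 6.44 on knockout replicates 1 to 4. Rescued replicate 3 was the highest and the groups overlapped, because rescued replicate 2 lay just below knockout replicate 2. C1s rose to 7.43 ± 0.61 in rescued cells, against 6.58 ± 0.26 in the knockout (SD, n = 4 each), a log2 difference of 0.85 (SE 0.27) or 1.80-fold, with a 95% interval from 1.18-fold to 2.75-fold (limma, adjusted p = 0.0329). The call was lost in 7 of 19 settings, among them without any 1 of 4 arrays (rescued replicate 4 and knockout replicates 1, 3 and 4; limma, adjusted p from 0.0501 to 0.0852), with each chromosome centred (0.73, adjusted p = 0.0529) and with no detection filter (adjusted p = 0.0572). Without background correction the difference was 0.54 (adjusted p = 0.0208), and without rescued replicate 3 it was 0.58 (adjusted p = 0.0393).

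The second C1s probe (ILMN_2667269) read 6.32, 6.48, 7.63 and 6.83 on rescued arrays, against 6.53, 6.54, 6.28 and 6.20 on knockout arrays. Here too rescued replicate 3 was the highest, and 2 of the 4 rescued arrays lay within the knockout range. Its log2 difference of 0.43 did not pass (95% interval -0.14 to 0.99, limma, adjusted p = 0.210), and without rescued replicate 3 it was 0.15 (adjusted p = 0.409). Averaged over both probes C1s differed by 0.64 (adjusted p = 0.0752), which does not pass. The gene lies beside its close relatives, with C1ra as its neighbour on chromosome 6 and C1rb between it and C1s2 in the RefSeq table of GRCm38.p6. Whether the probes also bind C1s2 transcripts was not analysed here. The 1 tested probe of C1s2 itself was dim, at 5.66 ± 0.24 in rescued and 5.26 ± 0.26 in knockout cells, and did not pass (0.40, adjusted p = 0.0656), with 4 rescued arrays and 1 knockout array detected; its other 3 probes were not detected on any array.

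The probe of C1ra, the protease that activates C1s, was not detected on any array, with log2 levels from 4.53 to 4.70 on rescued and from 4.50 to 4.68 on knockout arrays. No fold is given, since both groups were below background. The related gene C1rl, on the other side of C1ra, was measured by 2 probes that differed by -0.03 and -0.08 without passing (adjusted p = 0.916 and 0.684).

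C4b, the component cleaved by C1s and the MASP proteases, had log2 intensities of 5.95, 5.52, 7.04 and 5.96 on rescued arrays, against 7.16, 6.62, 6.58 and 6.69 on knockout arrays. The 3 rescued arrays other than replicate 3 lay below every knockout array, and rescued replicate 3 lay within the knockout range. C4b averaged 6.12 ± 0.65 over the rescued arrays and 6.76 ± 0.27 over the knockout arrays (SD, n = 4 each), with a log2 difference of -0.64 (SE 0.29) whose 95% interval ran from -1.29 to just under 0 and which did not pass (limma, adjusted p = 0.105). Without rescued replicate 3 the difference was -0.94 and passed (limma, adjusted p = 0.00208), as it did with array weights (-0.85, adjusted p = 0.0122). Without background correction it was -0.31 and did not pass (adjusted p = 0.0909). The probe of C4a, its near copy, was not detected on any array, and whether the C4b probe also binds C4a transcripts was not analysed here.

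Of the alternative and lectin pathway members, neither Cfb nor Masp1 met the detection filter. Cfb encodes factor B, the protease subunit of the alternative C3 convertase. Its probe read 4.72, 4.84, 4.75 and 4.79 on rescued arrays, none of them detected, against 5.21, 5.13, 5.57 and 5.20 on knockout arrays, of which knockout replicate 3 alone was detected. Every rescued array lay below every knockout array, but at levels near background. With no detection filter, over all 25697 probes, the log2 difference was -0.50 (limma, adjusted p = 0.00522); no fold is given because most knockout arrays were below background as well. Masp1, which encodes the lectin pathway protease MASP-1, ranged from 4.51 to 4.82 on rescued and from 4.56 to 4.81 on knockout arrays and was detected on none.

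**Figure D1:**
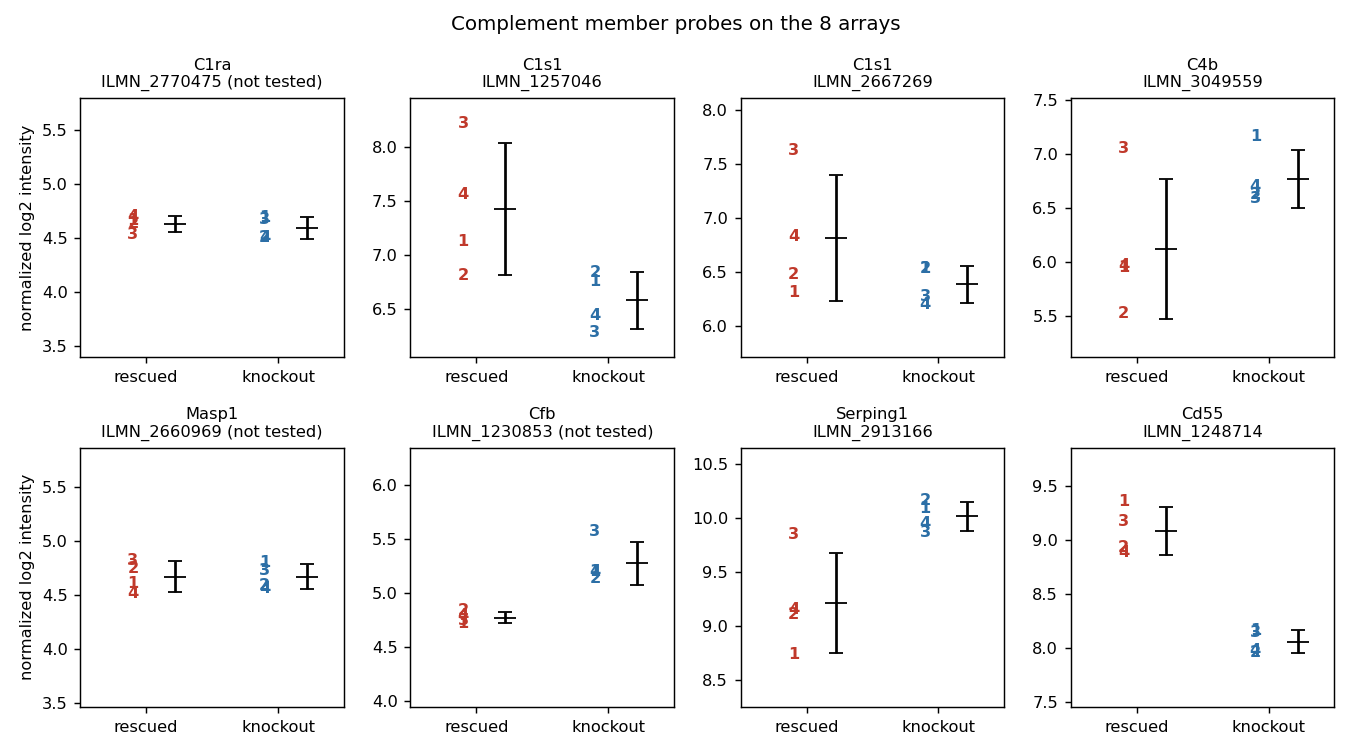
Normalized log2 intensity of the 8 member probes, with the replicate number of each array as the plotting symbol (rescued left, knockout right), the mean ± SD beside it (n = 4 each) and a separate axis range for each probe. Rescued arrays lie above knockout arrays for Cd55 and below them for Serping1 and Cfb, and replicate 3 is the highest rescued array at both C1s1 probes, C4b and Serping1.

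Among the regulators, Serping1 and Cd55 moved in opposite directions. Serping1, which encodes C1 inhibitor, read 8.74, 9.10, 9.85 and 9.16 on rescued arrays, against 10.09, 10.17, 9.86 and 9.95 on knockout arrays. The groups did not overlap, but rescued replicate 3 came close to the lowest knockout array, replicate 3. Serping1 fell to 9.21 ± 0.46 in rescued cells, against 10.02 ± 0.14 in knockout cells (SD, n = 4 each), a log2 difference of -0.80 (SE 0.20), or 1.75-fold lower in rescued cells (95% interval 1.28 to 2.39; limma, adjusted p = 0.0113). Over the settings tried, the adjusted p ran from 0.000270 to 0.0329, and without rescued replicate 3 the difference was -1.02 (limma, adjusted p = 0.000270).

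Cd55, the gene of decay-accelerating factor, read 9.36, 8.93, 9.17 and 8.88 on rescued arrays, against 8.16, 7.95, 8.14 and 7.98 on knockout arrays. All 4 rescued arrays were above all 4 knockout arrays. Cd55 rose to 9.08 ± 0.22 in rescued cells, against 8.06 ± 0.11 in knockout cells (SD, n = 4 each), a log2 difference of 1.03 (SE 0.11) or 2.04-fold, with a 95% interval from 1.71-fold to 2.43-fold (limma, adjusted p = 0.000129). Unlike the members above, it was highest on rescued replicate 1, and over the settings tried the difference ran from 0.85 to 1.10 with adjusted p at most 0.000784. The probe of its close copy Cd55b, the next gene on chromosome 1, was not detected on any array.

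Beyond the members, a list of 51 other complement genes was read, of which 44 had a named probe and 15 could be tested, each by its brightest tested probe. Of these 15 genes 1 rose and 6 fell in rescued cells, and the other 8 missed the threshold. Their median log2 difference was -0.15, against 0.01 over all 8633 genes tested, of which 21% rose and 18.9% fell. This list too was chosen with earlier results of these data known, so its share of falls is not independent of them. Cfi, 1 of the 6 that fell, met the detection filter through the knockout arrays alone. The count of falls and the median are therefore not independent of the filter either. The largest difference was at C4bp, which encodes C4b-binding protein, a soluble cofactor for the cleavage of C4b. It read 7.70, 7.85, 7.44 and 8.30 on rescued arrays, against 10.90, 10.94, 11.20 and 10.89 on knockout arrays. The groups were far apart, and every rescued array lay below every knockout array. C4bp fell to 7.82 ± 0.36 in rescued cells, against 10.98 ± 0.15 in knockout cells (SD, n = 4 each), 8.94-fold lower (95% interval 6.91 to 11.6; limma, adjusted p = 1.15e-06). In RefSeq's gene order a single protein-coding gene, Zp3r, lies between Cd55 and C4bp on chromosome 1. These neighbours had the highest and the lowest difference among the 22 tested complement probes.

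The regulators Clu, Cfi, Cd59a and Cd59b were also lower in rescued cells. Clu, which encodes clusterin, a chaperone that binds terminal complement complexes, read 6.86, 6.87, 9.11 and 7.99 on rescued arrays, against 9.72, 9.78, 9.71 and 9.74 on knockout arrays. Rescued replicate 3 was again the highest of its group, but all rescued arrays lay below the knockout arrays. The log2 difference was -2.03 (SE 0.43; limma, adjusted p = 0.00519), and -2.50 without rescued replicate 3 (adjusted p = 0.000107). Cfi, which encodes the protease factor I, was below detection on all 4 rescued arrays (measured mean 4.97 ± 0.16). Over the knockout arrays it averaged 6.22 ± 0.28, and it met the detection filter through those arrays alone. Its call is therefore not independent of the filter. The measured log2 difference was -1.25 (limma, adjusted p = 0.000143). On these background-corrected values Cfi was at least 2.02-fold lower in rescued cells, a bound that carries no p-value. It sets the knockout mean against a limit for each rescued array, the higher of the lowest detected level and the probe's own level. Without background correction Cfi still passed, with a log2 difference of -0.52, and the bound does not carry over to that setting.

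Cd59a and Cd59b encode 2 copies of the inhibitor of the terminal pore and are adjacent on chromosome 2. Cd59b fell to 7.19 ± 0.26 in rescued cells, against 8.21 ± 0.16 in knockout cells (SD, n = 4 each; log2 difference -1.02, limma, adjusted p = 0.000373), with no overlap. Cd59a fell to 10.48 ± 0.28 in rescued cells, against 10.85 ± 0.04 in knockout cells (-0.37, limma, adjusted p = 0.0405), and the groups overlapped at rescued replicate 3, which read 10.88. That call was lost in 10 of 19 settings, 7 of which each left out an array other than rescued replicate 3 (limma, adjusted p from 0.0664 to 0.103), and without rescued replicate 3 the difference was -0.51 (limma, adjusted p = 0.000590). Whether each probe also binds transcripts of the other copy was not analysed here.

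Of the recognition molecules, Fcna, which encodes ficolin A, was dim and fell to 5.37 ± 0.16 in rescued cells, against 6.26 ± 0.20 in knockout cells (log2 difference -0.89, limma, adjusted p = 0.000375), with no overlap; without background correction the difference was -0.37 and still passed. C1qbp, the 1 gene of the list that rose, encodes a mainly mitochondrial protein first described as a binder of C1q, and averaged 10.99 ± 0.11 in rescued and 10.70 ± 0.08 in knockout cells (0.28, limma, adjusted p = 0.0184). Without knockout replicate 4 its call was lost (0.24, adjusted p = 0.0516). The 8 genes that did not pass were C1rl, C1s2, C8b, C8g, Cd93, Colec12, Cr1l and Itgb2, with differences from -0.24 to 0.40. Among them Cr1l, the rodent surface regulator Crry, averaged 7.44 ± 0.19 in rescued and 7.58 ± 0.13 in knockout cells (-0.14, 95% interval -0.39 to 0.10, adjusted p = 0.328).

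**Figure D2:**
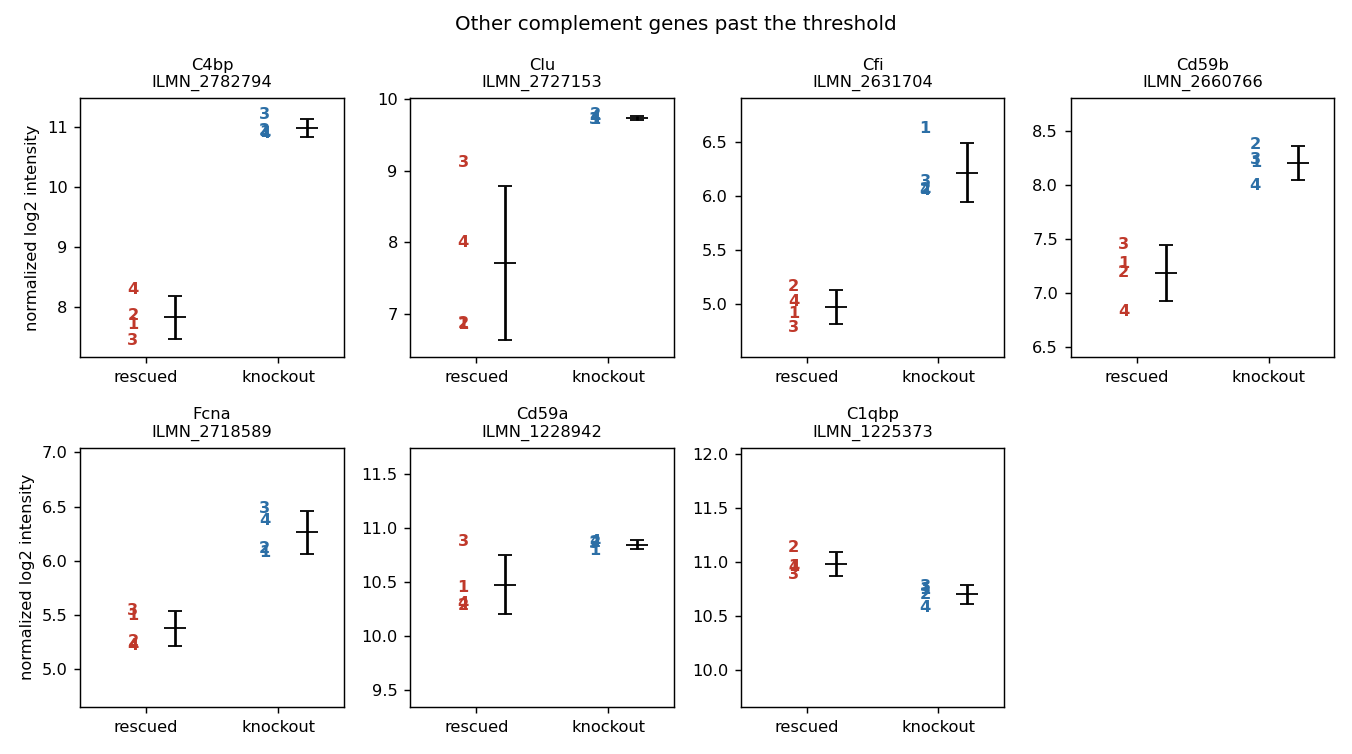
Normalized log2 intensity of the 7 other complement genes past the threshold, with replicate numbers as symbols (rescued left, knockout right) and the mean ± SD beside them (n = 4 each), ordered from the largest fall to the rise. C4bp has the widest gap between groups, and Clu the widest spread among rescued arrays, with replicate 3 at 9.11. C1qbp is the only one with every rescued array above every knockout array.

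Of the 29 list genes on the array that were not tested, 24 were detected on no array. These held all 3 chains of C1q (C1qa, C1qb and C1qc), the mannose-binding lectins Mbl1 and Mbl2, the anaphylatoxin receptors C3ar1, C5ar1 and C5ar2, and the terminal components Hc (C5), C6 and C8a. C2, C9, Cpn1, Csmd1 and Masp2 were detected on 1 to 3 arrays.

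**Figure D3:**
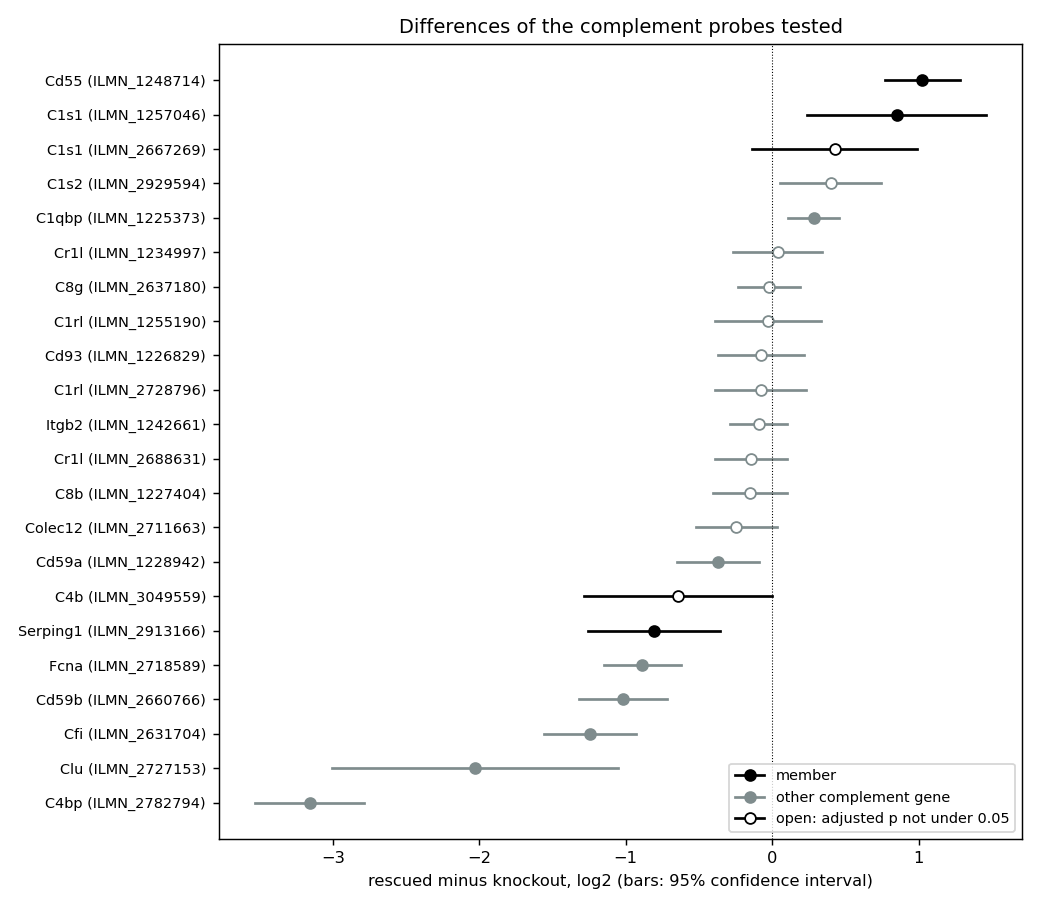
Difference in normalized log2 intensity, rescued minus knockout, for the 22 tested complement probes, with 95% confidence intervals from limma; members are black, other complement genes grey, and open points have an adjusted p of 0.05 or more. The values run from 1.03 for Cd55 to -3.16 for C4bp, and both C1s1 probes lie above 0 while Serping1 and C4b lie below it.

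Spread among the rescued arrays was shared by several of these genes. Rescued replicate 3 was the highest rescued array at 4 of the 5 tested member probes and at 12 of the 22 tested complement probes, and at 30.5% of all tested probes. It was the lowest at none of the 5 member probes, at 6 of the 22 complement probes and at 33.5% of all tested probes. Relative to the mean of the other 3 rescued arrays it was higher by 1.05 and 1.09 at the C1s probes, by 1.23 at C4b, by 0.85 at Serping1 and by 1.87 at Clu on the log2 scale, but by 0.11 at Cd55 and lower at C4bp (-0.51). The median absolute deviation of the same kind was 0.17 over all tested probes. Of the 10 tested probes of adventitial fibroblast markers, 7 were above the mean of the other rescued arrays on the same array and 3 were below it. The values were 3.17 and 2.69 at the Dcn probes, 2.44 at Dpt and 1.42 at Pi16, but -1.06 at Mfap5 and -0.25 and -0.31 at the Pcolce2 probes.

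Over the adventitial list, 8 of 11 markers were tested, 1 rose and 5 fell in rescued cells, and Lum was not detected; the mean log2 level of the 8 was 8.65 to 9.69 on rescued and 9.96 to 10.08 on knockout arrays, with rescued replicate 3 at the top of its group. The part of these cells in the levels of C1s, C4b, Serping1 and Clu was not tested. Over all genes tested 21% rose and 18.9% fell, and the count of each marker list is read against these shares. Markers of other cell types gave mixed levels. Alb, Apoa1, Fgb and Ttr of hepatocytes were detected nowhere, with 2 of 7 markers tested and none past the threshold (mean 5.34 to 5.88 on rescued and 5.49 to 5.95 on knockout arrays). Of 14 macrophage markers 4 were tested, with 2 higher and 1 lower in rescued cells (mean 6.66 to 6.80 on rescued and 6.12 to 6.53 on knockout arrays), while Adgre1, Cd163, Fcgr1, Itgam, Mrc1, Ptprc and Tyrobp were not detected. Lyz2 averaged 7.31 on rescued arrays, all 4 detected, and 5.17 on knockout arrays, of which 1 was detected, so the knockout level is near background. The other Lyz2 probes did not meet the detection filter, and the rescued arrays alone were enough for the tested probe to meet it. The Lyz2 call is therefore not independent of the filter. Cd14 averaged 8.29 on rescued and 7.39 on knockout arrays, and Cd53, the one that fell, averaged 5.56 on rescued and 6.80 on knockout arrays. Aif1 did not pass, and its tested probe was detected on every array (5.64 on rescued and 5.79 on knockout arrays). Of 8 adipocyte markers 2 were tested, Pparg being higher, with Adipoq, Plin1 and Fabp4 not detected (mean 7.66 to 8.09 on rescued and 7.07 to 7.22 on knockout arrays). Lep, the other one tested, did not pass (5.38 on rescued and 5.70 on knockout arrays). Of 10 endothelial markers 5 were tested and 4 were higher (mean 7.20 to 7.40 on rescued and 6.50 to 6.73 on knockout arrays), while Cdh5, Pecam1, Emcn and Tie1 were not detected. Those higher were Flt1 (11.04 on rescued and 10.24 on knockout arrays), Plvap (8.06 on rescued and 7.30 on knockout arrays), Vwf and Nos3. Vwf and Nos3 were dim (5.92 and 5.63 on rescued arrays) and were detected on all 4 rescued arrays and on no knockout array. Both met the detection filter through the rescued arrays alone, so their calls, and the count and mean of the endothelial list, are not independent of it. The other Nos3 probes did not meet the filter. Kdr, the remaining endothelial marker tested, did not pass (5.80 on rescued and 5.79 on knockout arrays). The part of macrophage and endothelial transcripts in the complement differences was not tested.

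**Figure D4:**
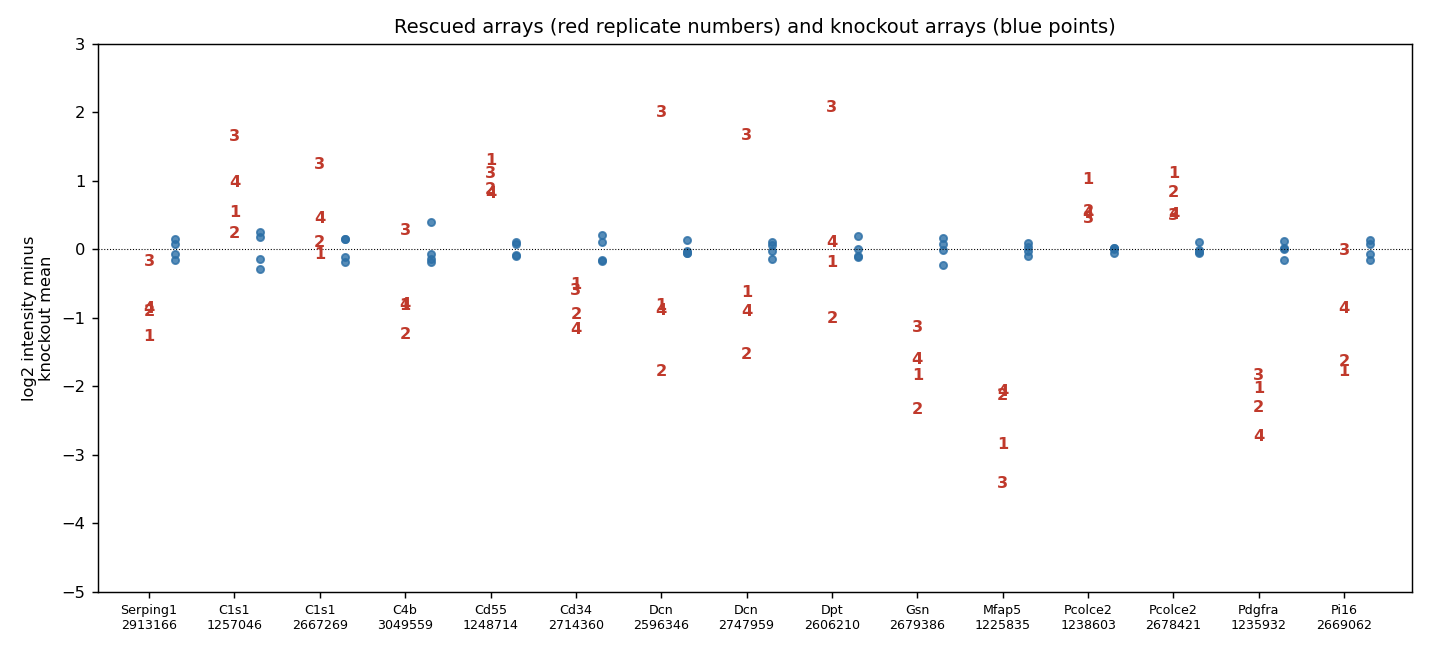
Log2 intensity minus the knockout mean for the 5 tested member probes and all 10 tested probes of adventitial fibroblast markers, with rescued arrays as red replicate numbers and knockout arrays as blue points; the number under each gene is that of its Illumina probe. Replicate 3 is the highest rescued array at 4 of the 5 member probes and at 6 of the 10 marker probes, and the lowest at 3 marker probes (Mfap5 and both of Pcolce2).

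The genes whose profiles were most like those of the 3 called members were taken by Pearson's correlation over the 8 arrays. The arrays share their group with one another, so these values include the difference between the groups and are given as a description. For Cd55 these were Mybl2, Sertad4 and Dpp7 (r = 0.992, 0.991 and 0.990), which differed by 0.80, 2.41 and 0.35 on the log2 scale. For the brighter C1s probe they were Atp5c1, Tmem45a and Zfp524 (r = 0.980, 0.976 and 0.976), with differences of 0.27, 0.85 and 0.20. The profiles most like Serping1 were those of Dcaf4, Ghdc and Cebpb (r = 0.989, 0.983 and 0.980), with differences of -0.63, -0.47 and -0.48. No complement gene was among these 9.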

How the data were processed

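RNA of 8 samples was measured on Illumina bead arrays. The deposited tables hold a bead signal intensity and a detection p-value per probe and array, and the authors' deposited series table holds log2 values. The deposited intensities are named non-normalized, and the steps behind the authors' log2 values are not stated in the sources used here. From the intensities, limma 3.58.1 in R 4.3.3 corrected background with negative controls inferred from detection p (neqc, offset 16), quantile-normalized and took log2; the deposited log2 values had a correlation of 1 with these. The platform annotation gave 1 symbol to 23978 probes and none to 1719. Of the named probes, 23962 were matched to RefSeq by gene identifier and took its symbol, while the others kept the platform symbol. Probes with detection p under 0.05 on at least 4 arrays were kept, 12658 of 25697, and rescued cells were compared with knockout cells by lmFit and eBayes, with Benjamini-Hochberg adjustment over all kept probes. Where several kept probes carried a symbol, the brightest on average stood for the gene. With 4 arrays a group, precision is set by the number of arrays. The fit was tested on simulated data.

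The rule for named genes took every member, every other listed complement gene past the threshold (at most 12), up to 3 smooth muscle markers as examples and, for the 3 members called, the 3 genes most like each by Pearson's r. Complement genes short of the threshold and the markers beyond those examples were named after their values were seen. The members and lists were chosen with earlier results of these data known. Replicate numbers did not pair the arrays (correlations of same-numbered deviations from -0.08 to -0.00). Alternatives changed the background correction, scaling, detection filter, variance model, threshold and arrays. Probe sequences were not used here, so binding to close copies of a gene was not examined.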

Additional observations from a re-analysis of the deposited data

Results flagged for a closer look

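Of 40 groups of 4 arrays examined over the tested complement genes and probes, 3 held an array far from the other 3 of its group by Dixon's criterion, and chance gives about 1 in 20. C4bp, the gene of C4b-binding protein, read 11.20 on knockout replicate 3, with the nearest knockout array at 10.94; all rescued arrays lay far below. Cfi, the gene of factor I, read 6.63 on knockout replicate 1, with the nearest knockout array at 6.13, and without that array its log2 difference was -1.11 (limma, adjusted p = 0.000132). Cd59a read 10.79 on knockout replicate 1, with the nearest at 10.86, and without it the difference was -0.39 and did not pass (limma, adjusted p = 0.0664).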

How the results depend on the processing

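Cd55, Serping1, C4bp, Clu, Cfi, Cd59b and Fcna kept their direction and an adjusted p under 0.05 (limma) under every alternative run for them, and no difference listed here changed sign. For Cfi these were 18 alternatives, since it was not tested when detection was required on all 8 arrays. The brighter C1s probe lost its call in 7 of 19 alternatives, Cd59a in 10 and C1qbp in 1, while C4b gained one in 2. At a stricter adjusted p of 0.01, 1 member probe (Cd55) and 3037 of all kept probes passed. At an adjusted p of 0.05 with at least a 1.5-fold difference, 3 member probes and 1765 of all kept probes passed. Leaving out 1 array at a time gave 2 to 4 member probes, 5 to 8 of the wider list and 4148 to 5072 of all probes, against 3, 7 and 4906. With the replicate number as a block these were 2, 6 and 4206, and the C1s and Cd59a calls were lost (adjusted p = 0.0709 and 0.0533); the numbers do not pair the arrays. The causes were not tested, except that without a detection filter more probes were tested. With background left uncorrected, dim genes differed less, Cfi by -0.52, Fcna by -0.37 and C4b by -0.31. Signal near background left C1ra, Masp1 and Cfb without a test in the main fit. With no detection filter 1 member probe was higher and 2 were lower, as C1s lost its call and Cfb gained one (-0.50, limma, adjusted p = 0.00522).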
